A study of Mus musculus with 8 samples.

Results

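Liver samples of wild-type (WT, 3 arrays) and Abhd15 knockout (KO, 5 arrays) mice were compared for 10 genes of glucose production. No label lists the animals, so whether each array stands for a separate mouse is not given. The genes were 6 enzymes or carriers (Pck1, Pck2, G6pc, Slc37a4, Fbp1 and Pcx) and 4 transcriptional drivers (Ppargc1a, Foxo1, Sik1 and Crtc2). The members were taken by symbol, each from the transcript cluster (the probe group that stands for a transcript on this array) whose annotation gave that single symbol. All 10 were measured, among 22180 genes with such a cluster. Foxo1 alone had more than 1 cluster, and the brighter represents it. All mice were male, on the C57BL/6J background and fed normal chow. The design text gives an age of 14 weeks and an overnight fast ended by 1 hour of chow before the liver was taken, while the sample labels give the same number of weeks as the longest time on the diet. The groups differed in genotype only as labelled. How the Abhd15 allele was made, and whether the mice were littermates, the sources used here do not give. Each sample was hybridised to 1 Affymetrix Mouse Gene 2.0 ST array, and values are log2 expression.

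Gluconeogenesis is the making of glucose from lactate, glycerol and amino acids, and the liver is its main site. In fasting, glucagon raises cAMP, protein kinase A acts on CREB and its coactivator CRTC2, and FOXO1 and PGC-1alpha (the product of Ppargc1a) add to the transcription of Pck1 and G6pc. Insulin released after a meal sends FOXO1 out of the nucleus through AKT and so lowers these genes. ABHD15, an alpha/beta hydrolase domain protein, has been studied mainly in fat cells, with the cAMP-degrading enzyme PDE3B.

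The data of the whole series set these limits. The medians of the arrays over 41345 clusters were 2.99 to 3.05, and single-symbol clusters correlated between arrays at 0.978 to 0.985 (across clusters, which are no independent replicates). KO arrays 1 and 2 stood apart on the first principal component (22.1% of variance), scoring 35.7 and 32.1 where the other 6 lay at -19.4 to 0.661. Abhd15 averaged 5.64 ± 0.176 in the WT arrays (SD, n = 3) and, without overlap, 5.12 ± 0.0775 in the KO arrays (SD, n = 5), a log2 difference of -0.52 (SE 0.129, limma adjusted p = 0.795). The position of its probes relative to the deleted part is unknown here, so this checks the labels only by its direction. Of the hepatocyte markers, 7 of 8 were measured, with mean levels of 8.87 to 13.08, while the measured adipocyte, pancreas, B cell, T cell and neutrophil markers all averaged 3.68 or less. Measured sinusoidal endothelial markers averaged 6.44 to 8.18, stellate cell markers 4.12 to 9.49 and cholangiocyte markers 2.88 to 6.84.

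For none of the 10 genes was a difference between KO and WT shown beyond the spread between arrays. limma called 0 of 10 members at an adjusted p of 0.05, against 0 of all 23521 single-symbol clusters (0%). At an unadjusted p under 0.05 limma also called 0 members, while 6.08% of all clusters passed, 2.75% higher and 3.32% lower in KO. The members' adjusted p-values lay between 0.838 and 0.997, and the exact permutation p-values between 0.0714 and 0.964. In 0 of 10 members did the KO arrays lie clear of the WT arrays, against 4.43% of all clusters (1.99% above and 2.44% below WT). In all, 9 members (every one but Pcx) had the higher mean in KO, as 49.6% of all clusters did, and the median log2 difference of the 10 was 0.075, against -0.002 over all clusters. That median fell to 0.046 when KO array 1 was left out, to 0.050 for WT array 3 and to 0.028 for KO arrays 1 and 2 together. It was 0.149, 0.139 and 0.179 when WT array 1, KO array 4 or KO array 5 was left out.

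**Figure D1:**
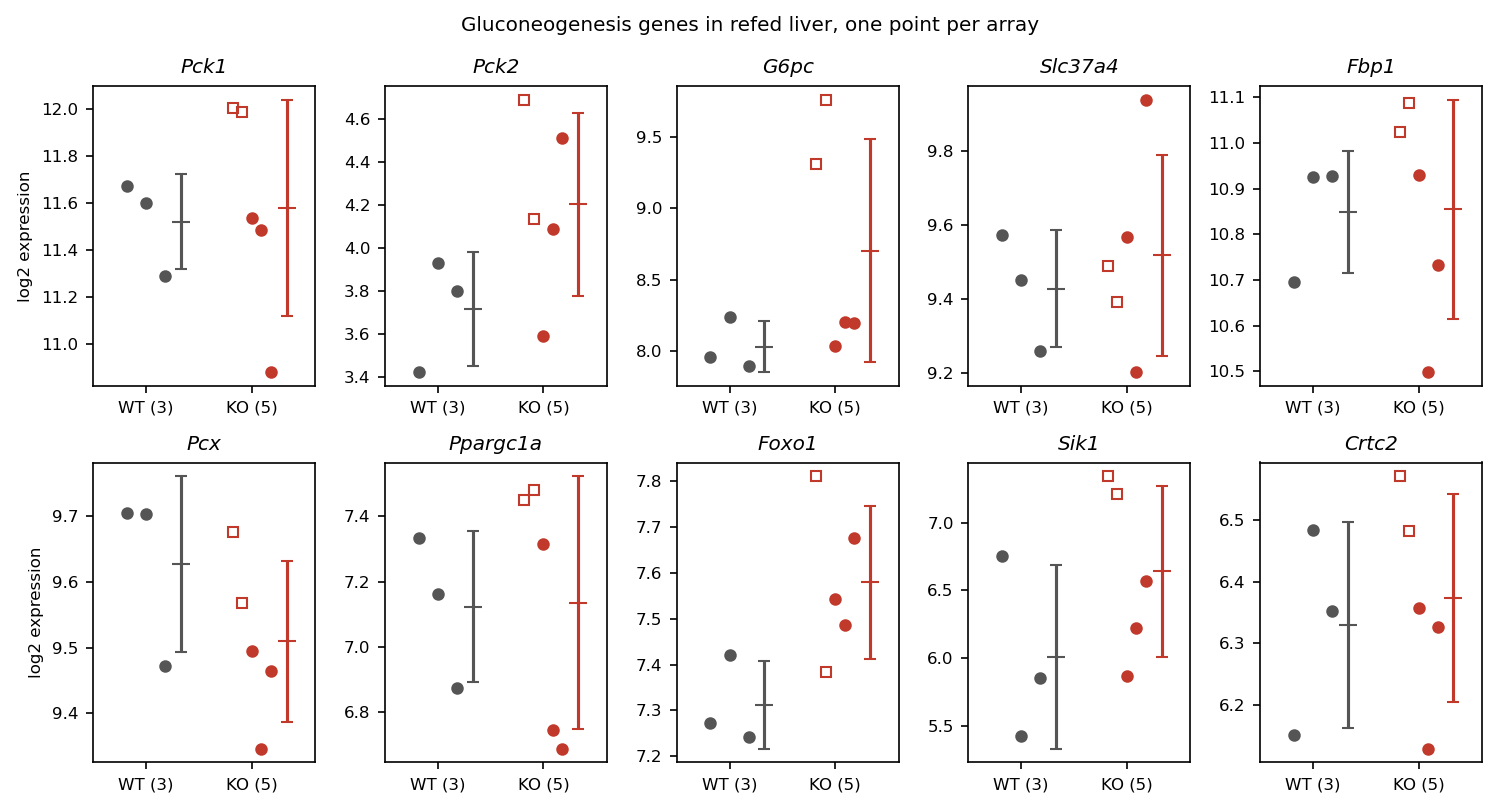
Log2 expression of the 10 genes on each array (vertical axes, 1 scale per panel), WT in grey and Abhd15 KO in red, with the mean and SD beside the points and KO arrays 1 and 2 as open squares. The groups overlap in every panel. G6pc reads 9.315 and 9.764 in the squares and at most 8.235 elsewhere.

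Pck1 encodes the cytosolic phosphoenolpyruvate carboxykinase, which turns oxaloacetate into phosphoenolpyruvate and is the classic transcriptionally controlled step of the pathway. It read 11.670, 11.598 and 11.290 in WT and 12.005, 11.987, 11.537, 11.483 and 10.881 in KO arrays 1 to 5. The KO values thus reached above and below all WT values, with arrays 1 and 2 highest and array 5 lowest of all 8. The log2 difference was 0.06 (SE 0.244, 95% interval -0.48 to 0.60, limma adjusted p = 0.981, exact permutation p = 0.911). Omitting WT array 3 (-0.055), or KO array 1 (-0.047) or 2 (-0.043), turned its sign, and the difference was 0.23 without KO array 5.

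G6pc encodes the catalytic subunit of glucose-6-phosphatase, which frees glucose in the last step of the pathway. It read 7.960, 8.235 and 7.896 in WT and 9.315, 9.764, 8.038, 8.202 and 8.195 in KO. KO arrays 1 and 2 were above every other array, and the other 3 KO arrays lay inside the WT range. The log2 difference of 0.67 (SE 0.374, 95% interval -0.16 to 1.50), or 1.59-fold, had a limma adjusted p of 0.849 and an exact permutation p of 0.179. Without KO arrays 1 and 2 it was 0.11, and without KO array 2 alone 0.41. In WT the SD of G6pc was 0.18, and in KO it was 0.783.

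Both genes are textbook targets of cAMP and insulin, so their promoter windows are shown with that of Ppargc1a, whose product acts on both. These 3 are among the genes with KO arrays 1 and 2 highest, as are Fbp1 and Sik1, which are not shown. Each window runs from 250 bases before to 50 bases after the RefSeq gene start in GRCm38.p6, 5′ to 3′ on the gene's strand: Pck1 at chr2:173152823-173153122 (plus), G6pc at chr11:101367466-101367765 (plus) and Ppargc1a at chr5:51567676-51567975 (minus). Capitals mark exact matches, on either strand, to the motifs searched.
Pck1: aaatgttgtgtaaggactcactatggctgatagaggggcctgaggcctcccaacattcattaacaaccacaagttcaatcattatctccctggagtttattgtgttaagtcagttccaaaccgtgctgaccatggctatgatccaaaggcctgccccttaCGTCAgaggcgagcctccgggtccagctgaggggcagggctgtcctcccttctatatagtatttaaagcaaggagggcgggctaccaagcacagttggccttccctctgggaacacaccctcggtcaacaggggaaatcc
G6pc: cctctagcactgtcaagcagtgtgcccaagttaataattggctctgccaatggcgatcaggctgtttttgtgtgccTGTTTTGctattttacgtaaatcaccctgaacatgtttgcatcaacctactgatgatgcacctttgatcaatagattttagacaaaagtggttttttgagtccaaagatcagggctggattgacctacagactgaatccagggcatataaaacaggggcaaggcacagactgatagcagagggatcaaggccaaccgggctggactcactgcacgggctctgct
Ppargc1a: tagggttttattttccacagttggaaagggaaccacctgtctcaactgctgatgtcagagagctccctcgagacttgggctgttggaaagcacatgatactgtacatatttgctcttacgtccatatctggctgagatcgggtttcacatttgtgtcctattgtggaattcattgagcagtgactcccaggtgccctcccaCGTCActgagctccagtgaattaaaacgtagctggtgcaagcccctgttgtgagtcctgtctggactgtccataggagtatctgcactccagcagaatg

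The motifs were TGACGTCA (the full cAMP response element), TGACG (its core, which the full element contains), GTAAACA (a forkhead-type element) and CAAAACA (an insulin response element). RefSeq windows matched 8 of the 10 members, with 11 windows in all, since Slc37a4 and Pcx have several. Sik1 and Crtc2 had no window. TGACG was found for Pck1, its reverse complement beginning 90 bases before the start, for Ppargc1a, 49 bases before it, and in overlapping windows of Slc37a4. CAAAACA was found as its reverse complement for G6pc, 174 bases before the start, and for Pck2, 159 bases before it. TGACGTCA and GTAAACA matched no member's window, and the windows of Fbp1, Foxo1 and Pcx held no match at all. Over all 32851 RefSeq windows, 20.8% held TGACG, 6.28% CAAAACA, 3.65% GTAAACA and 1.79% TGACGTCA. A match describes letters in a window and is not a shown binding site.

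Pck2 encodes the mitochondrial carboxykinase. Its cluster was dim (mean 4.02), and no detection call was used here that would set its signal above background. WT read 3.421, 3.930 and 3.800 and KO 4.690, 4.134, 3.588, 4.090 and 4.510, so that 4 of 5 KO arrays were above all WT arrays, while KO array 3 lay inside the WT range. KO exceeded WT by 0.49 on the log2 scale (SE 0.237, 95% interval -0.04 to 1.01, limma adjusted p = 0.838, exact permutation p = 0.161). It kept its sign in every single omission, at 0.34 to 0.64.

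Slc37a4 encodes the carrier that brings glucose-6-phosphate to the phosphatase in the endoplasmic reticulum. It read 9.573, 9.451 and 9.260 in WT and 9.490, 9.392, 9.569, 9.203 and 9.939 in KO. KO array 5, lowest for Pck1, was highest here, and KO array 4 was lowest. KO minus WT was 0.09 on the log2 scale (SE 0.173, 95% interval -0.29 to 0.47, limma adjusted p = 0.96), and -0.014 without KO array 5.

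Fbp1, fructose-1,6-bisphosphatase, opposes phosphofructokinase. It read 10.695, 10.926 and 10.927 in WT and 11.025, 11.088, 10.930, 10.498 and 10.733 in KO, with KO arrays 1 and 2 highest and KO array 4 lowest. The log2 difference was 0.01 (SE 0.161, 95% interval -0.35 to 0.36, limma adjusted p = 0.997), and it took the other sign without WT array 1 (-0.072) or without KO array 1 (-0.037), 2 (-0.053) or 3 (-0.013).

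Pcx, pyruvate carboxylase, makes oxaloacetate from pyruvate in mitochondria. It read 9.705, 9.704 and 9.472 in WT and 9.676, 9.568, 9.495, 9.346 and 9.465 in KO. It was the member with the narrowest range, 0.359, and the only member with the lower mean in KO. The log2 difference was -0.12 (SE 0.131, 95% interval -0.41 to 0.17, limma adjusted p = 0.918, exact permutation p = 0.232), and it was -0.194 without WT array 3, -0.078 without WT array 1 or 2 and -0.076 without KO array 4.

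Among the drivers, Ppargc1a encodes the coactivator PGC-1alpha. It read 7.334, 7.161 and 6.876 in WT and 7.448, 7.479, 7.314, 6.747 and 6.689 in KO. As for Pck1, KO arrays 1 and 2 were highest, WT array 1 came next, and KO array 5 was lowest. The log2 difference was 0.01 (SE 0.219, 95% interval -0.47 to 0.50, limma adjusted p = 0.996). Its sign turned without WT array 3 (-0.112) or KO array 1 (-0.066), 2 (-0.074) or 3 (-0.033).

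Foxo1 encodes the forkhead factor that insulin signalling switches off. It read 7.273, 7.421 and 7.242 in WT and 7.811, 7.384, 7.542, 7.486 and 7.676 in KO. Only KO array 2 lay inside the WT range, and the other 4 KO arrays were above it. The log2 difference was 0.27 (SE 0.137, 95% interval -0.04 to 0.57, limma adjusted p = 0.841), and its exact permutation p of 0.0714 was the lowest of the 10 members. Without KO arrays 1 and 2 it was 0.26. The dimmer Foxo1 cluster, at a mean of 5.43, had a log2 difference of 0.15 (SE 0.13).

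Sik1 encodes a salt-inducible kinase that is itself induced by CREB and phosphorylates CRTC2, which closes a feedback loop. It read 6.754, 5.422 and 5.850 in WT and 7.344, 7.209, 5.865, 6.223 and 6.572 in KO. KO arrays 1 and 2 were highest, but WT array 1 was above the other 3 KO arrays. The SD was 0.68 in WT and 0.632 in KO, so that the WT arrays alone varied by more than the difference of 0.63 (SE 0.375, 95% interval -0.20 to 1.46, limma adjusted p = 0.858, exact permutation p = 0.232). The difference was 1.01 without WT array 1, 0.34 without WT array 2 and 0.21 without KO arrays 1 and 2.

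Crtc2 encodes the CREB coactivator that glucagon brings to the nucleus, a control that acts on the protein. Its transcript read 6.151, 6.485 and 6.352 in WT and 6.572, 6.483, 6.358, 6.128 and 6.326 in KO. KO minus WT gave 0.04 on the log2 scale (SE 0.145, 95% interval -0.28 to 0.36, limma adjusted p = 0.979), and it was -0.045 without WT array 1, -0.006 without KO array 1 and 0.12 without WT array 2.

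**Figure D2:**
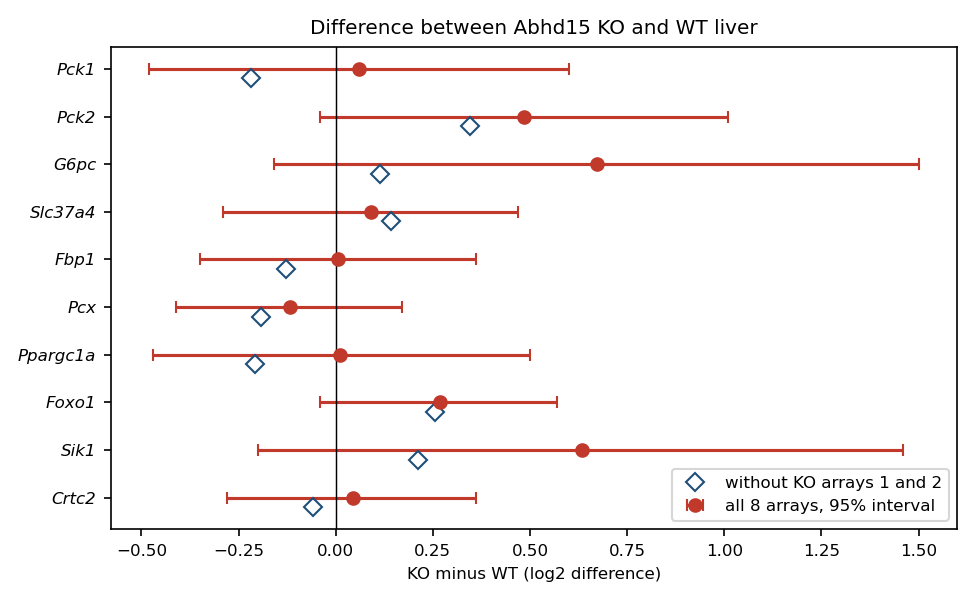
Log2 difference KO minus WT for each gene (horizontal axis) over all 8 arrays, with limma's 95% interval, and without KO arrays 1 and 2 as open diamonds. Every interval includes 0, and the diamond of G6pc is at 0.11 against 0.67 for all arrays.

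Members were also set against each other within each array, which shows unequal change of a pair and not which of them moved. The pairs were chosen with earlier results of these data known. The log2 value of G6pc minus that of Pck1 averaged -3.49 ± 0.192 over the WT arrays (SD, n = 3) and -2.88 ± 0.512 over the KO arrays (SD, n = 5). The difference of 0.61 had an exact permutation p of 0.0893, or 0.357 adjusted over the 4 pairs compared. Sik1 minus Crtc2 differed by 0.59 (exact permutation p = 0.232), Pck1 minus Pck2 by -0.43 (exact permutation p = 0.393) and Ppargc1a minus Foxo1 by -0.26 (exact permutation p = 0.446), and the adjusted p of each was 0.446 (exact permutation). Single omissions moved Sik1 minus Crtc2 to 1.052 (without WT array 1) or 0.219 (without WT array 2), Pck1 minus Pck2 to -0.203 (without WT array 1) or -0.175 (without KO array 5), and Ppargc1a minus Foxo1 to -0.131 (without WT array 1), -0.391 (without KO array 2) or -0.120 (without KO array 5). For G6pc minus Pck1 they gave 0.450 (without KO array 2) to 0.769 (without KO array 3). Without KO arrays 1 and 2, the differences were 0.334 for G6pc minus Pck1 and 0.270 for Sik1 minus Crtc2. They were then -0.463 for Ppargc1a minus Foxo1 and -0.565 for Pck1 minus Pck2. No pair was shown to respond unequally to the genotype.

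**Figure D3:**
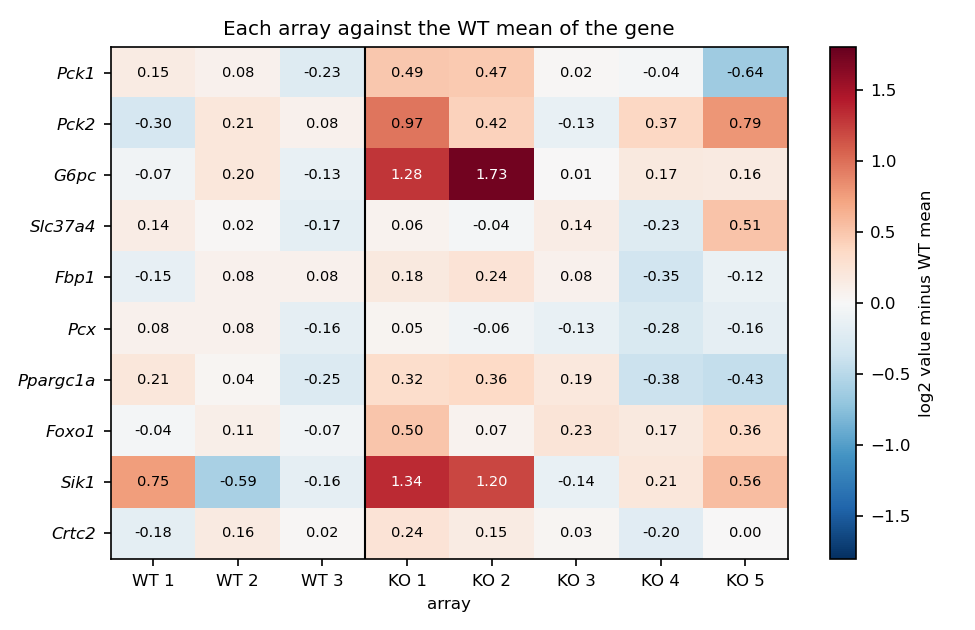
Log2 value of each gene (rows) on each array (columns) minus the gene's WT mean, as numbers and colour. KO arrays 1 and 2 carry the highest G6pc (1.28 and 1.73) and Sik1 (1.34 and 1.20), while Pck1 is at -0.64 in KO array 5.

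In 7 of 10 members the SD over the KO arrays was larger than the difference between the groups, and KO arrays 1 and 2 recurred at the high end. These arrays were the highest of all 8 for 5 of the 10 members, Pck1, G6pc, Fbp1, Ppargc1a and Sik1, against 5.57% of all clusters and 8.3% of the 7699 clusters whose mean reached 5. This is a description of arrays already known to stand apart, with no test. The mean of the 6 enzymes and carriers was 9.37 and 9.32 in KO arrays 1 and 2 and 8.86, 8.80 and 8.95 in KO arrays 3 to 5, where WT had 8.84, 8.97 and 8.77. The mean of the 4 drivers was 7.29 and 7.14, then 6.77, 6.65 and 6.82 in KO arrays 3 to 5, where WT had 6.88, 6.62 and 6.58. The genes shared unequally in these means. In KO arrays 1 and 2, G6pc was 1.28 and 1.73 above its WT mean, but Slc37a4 was at 0.06 and -0.04 and Pcx at 0.05 and -0.06. Sik1 was at 1.34 and 1.20, but Crtc2 at 0.24 and 0.15. The members without KO arrays 1 and 2 as the highest were Slc37a4, Pcx, Pck2, Foxo1 and Crtc2, in which another array reached the top 2. Because whole liver was measured, fewer cells of a type and less RNA per cell cannot be told apart.

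Genes lowered by insulin or raised by FOXO1 showed the same arrays. Of 10 measured, 8 had the higher mean in KO (49.6% of all clusters), and KO arrays 1 and 2 were highest for 5 (5.57% of all clusters). An unadjusted limma p under 0.05 was found for 1 of 10, which is near the 6.08% of all clusters. Igfbp1, an insulin-repressed secreted protein, read 5.781, 4.409 and 4.353 in WT and 10.257, 9.562, 6.051, 6.884 and 5.656 in KO, a log2 difference of 2.83 (SE 0.985) that was 1.35 without KO arrays 1 and 2. Trib1, a pseudokinase gene, differed by 0.37 (SE 0.236), and neither gene passed over all clusters. The median of the list was 0.17, and 0.03 without KO arrays 1 and 2.

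Of 13 early genes induced by cAMP or other acute stimuli, KO arrays 1 and 2 were highest for 11, against 5.57% of all clusters. The mean levels of these genes over all arrays ran from 3.06 to 7.46, so some were dim. In KO 10 were higher (49.6% of all clusters) and 3 lower. An unadjusted limma p under 0.05 in the higher direction was found for 4, where 2.75% of all clusters passed. Slc25a25, a mitochondrial ATP-magnesium carrier, differed by 0.89 (SE 0.263) and Per1, a clock gene, by 0.65 (SE 0.201). The list's mean level was 6.31 and 6.43 in KO arrays 1 and 2, 4.91 to 5.13 in KO arrays 3 to 5 and 4.86 to 4.96 in WT. Its part in the G6pc and Sik1 values was not tested.

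Glucocorticoid-induced genes, 7 of 10 higher (49.6% of all clusters), averaged 8.35 and 7.96 in KO arrays 1 and 2, 7.62, 7.38 and 7.70 in KO arrays 3 to 5 and 7.37 to 7.48 in WT. The lowest p there belonged to Mt2, a metallothionein, with a difference of 0.85 (SE 0.244), and Per1. Per1 and Dusp1 are also in the list above. KO arrays 1 and 2 were highest for 4 of the 10 (5.57% of all clusters). An unadjusted limma p under 0.05 in the higher direction was found for 4, where 2.75% of all clusters passed. For 2, all KO arrays were above all WT arrays (1.99% of all clusters). The list's median was 0.32, and 0.25 without KO arrays 1 and 2. Differences were unequal, from -0.07 (Zbtb16) to 1.05 (Dusp1), with Lcn2 at 0.69 and Mt1 at 0.44. Fkbp5, Sgk1 and Tsc22d3 were at -0.003, -0.026 and 0.058. These genes, other than Mt2 and Per1, were named after their values were seen. The part of the glucocorticoid-induced genes in the member values was not tested either. Macrophage markers (8 of 8 measured, at mean levels of 4.84 to 7.32) averaged 6.66, 6.39 and 6.78 in KO arrays 1 to 3, above the 5.81 to 6.25 of WT, and 5.58 and 5.97 in KO arrays 4 and 5. Their log2 summed level ran from 9.10 to 9.54 in WT and from 9.02 to 10.07 in KO. They were highest in KO array 3, where G6pc and Sik1 lay inside the WT range, and their part in the member values was not tested. The mean of the hepatocyte markers ran from 11.72 to 11.79 in WT. It was 11.58 in KO array 4 and 11.73 to 11.78 in the other KO arrays.

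**Figure D4:**
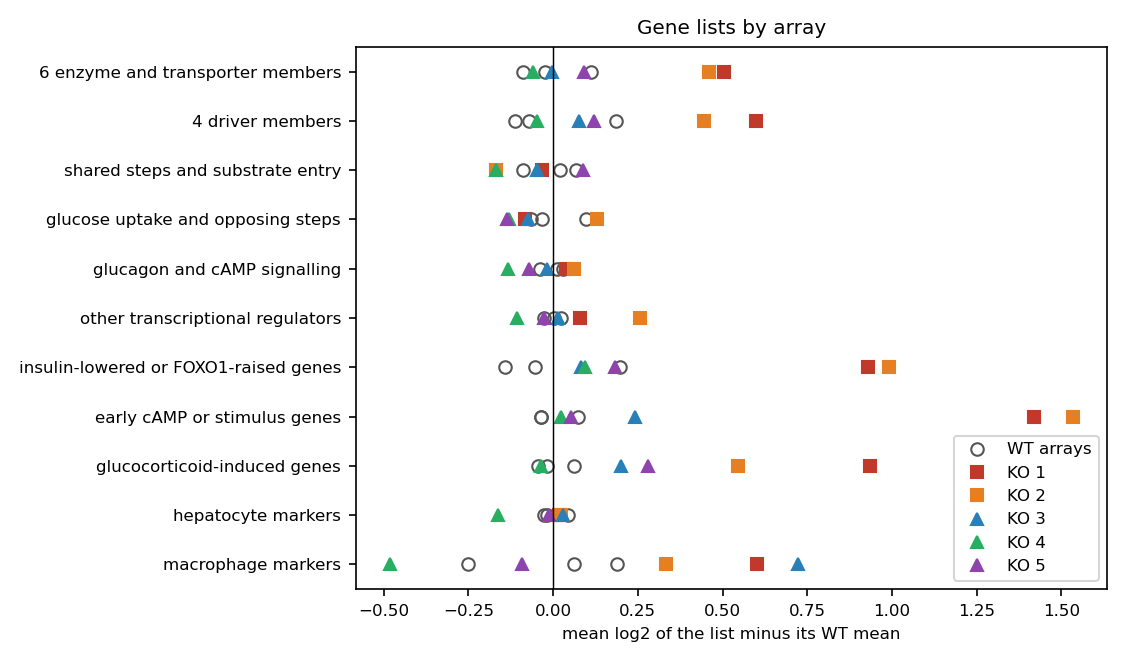
Mean log2 level of each gene list on each array minus the list's WT mean (horizontal axis), WT as open circles, KO arrays 1 and 2 as squares and the other KO arrays as triangles. The early stimulus genes reach 1.42 and 1.534 in the squares, and the enzyme members 0.505 and 0.46, while the lists of shared steps, glucose uptake and cAMP signalling stay between -0.169 and 0.129.

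In the rest of the pathway, KO arrays 1 and 2 were highest for 2 of 23 genes in shared steps and substrate entry (Tat and Got1), 1 of 5 in glucose uptake and opposing steps (Pfkl) and 1 of 21 in cAMP signalling (Crem), which were named after their values were seen. Over all clusters this share was 5.57%. Of 23 measured genes of shared steps, substrate carriers and amino acid entry, 7 were higher and 16 lower, with a median log2 difference of -0.06, and 1 had an unadjusted limma p under 0.05, no more than the 6.08% of all clusters. That gene was Slc25a10, the mitochondrial dicarboxylate carrier, at -0.45 (SE 0.158), and Gpd1, cytosolic glycerol-3-phosphate dehydrogenase, followed at -0.38 (SE 0.196). Tat, tyrosine aminotransferase, was the 1 gene of the list with all KO arrays (11.791 to 12.014) above all WT arrays (11.592 to 11.738). Such an upward separation held for 1.99% of all clusters. The difference of Tat was 0.21 (SE 0.12, limma adjusted p = 0.858). Of 21 genes of glucagon and cAMP signalling, 9 were higher and 12 lower (median -0.02), with 0 past an unadjusted limma p of 0.05, against 6.08% of all clusters. The catalytic and regulatory kinase subunits Prkaca and Prkar2a had the smallest p, at -0.20 (SE 0.122) and -0.22 (SE 0.147). Of 5 measured genes of glucose uptake and the opposing steps, 1 was higher and 4 lower, led by Gckr, the glucokinase regulator, at -0.14 (SE 0.145) and Mlxipl, which encodes ChREBP, at -0.11 (SE 0.149).

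Of 19 other transcriptional regulators of these genes, 10 were higher and 9 lower, and KO arrays 1 and 2 were highest for 5 (Cebpb, Klf15, Cry1, Sirt1 and Hnf4a), against 5.57% of all clusters. Klf15, Cry1, Sirt1 and Hnf4a were named after their values were seen. An unadjusted limma p under 0.05 was found for 1 higher and 1 lower gene. Over all clusters these shares were 2.75% and 3.32%. Cebpb, a factor that also drives acute phase genes, read 6.435, 6.726 and 6.589 in WT and 7.786, 7.530, 6.948, 6.909 and 6.844 in KO. All its KO arrays were above WT, which held for 1.99% of all clusters, and the difference was 0.62 (SE 0.226), or 0.32 without KO arrays 1 and 2. Foxa2, a liver forkhead factor, differed by -0.47 (SE 0.171). Neither passed over all clusters, at limma adjusted p-values of 0.795 for each.

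Only G6pc and Sik1 varied by an SD of at least 0.5 over the 8 arrays, and for these the genes of most similar course were sought among 7469 other genes with a mean of at least 5. Likeness was the root mean square difference of values centred on each gene's mean over the 8 arrays. Nearest to G6pc were Slc38a2, an amino acid transporter (0.243), Zfp36, an mRNA decay factor (0.245), and Wsb1, a ubiquitin ligase component (0.251). Nearest to Sik1 were Wsb1 (0.342), Map3k13, a kinase gene (0.379), and Trib1 (0.379). All 5 genes had KO arrays 1 and 2 highest, a likeness that the selection by profile fixes.

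**Figure D5:**
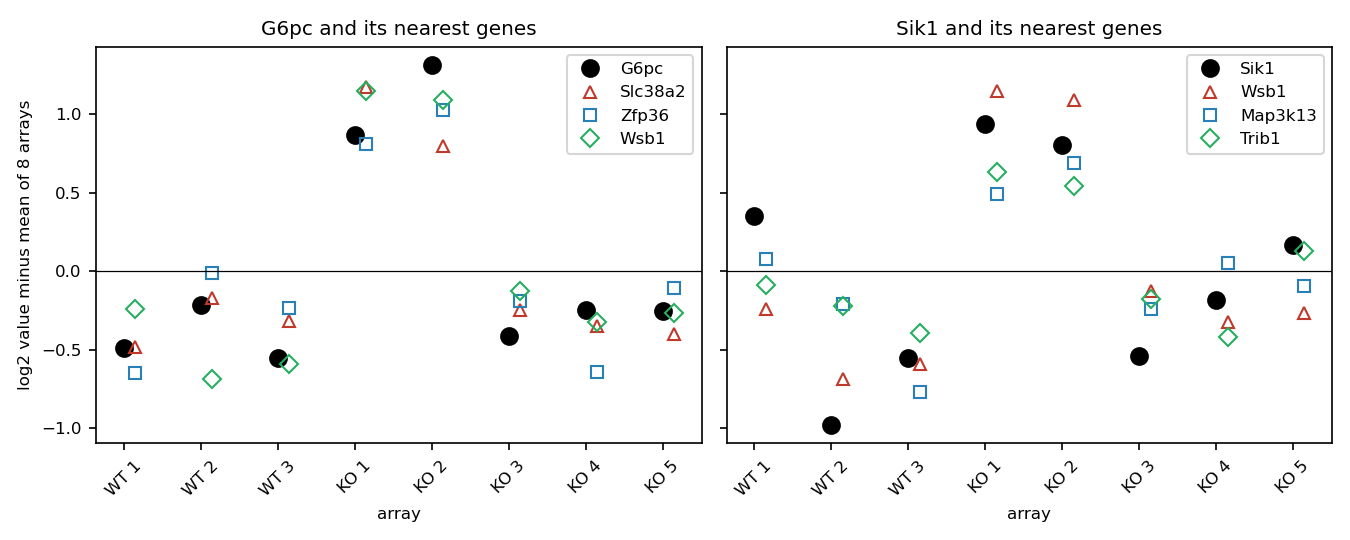
Log2 values minus each gene's mean over 8 arrays (vertical axis) by array, for G6pc (left) and Sik1 (right) as filled points and their 3 nearest genes as open symbols. KO arrays 1 and 2 are above 0 for every gene drawn, and WT array 1 is above 0 for Sik1 and Map3k13.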

How the data were processed

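Liver RNA was measured on 8 arrays, 3 WT and 5 KO, grouped and numbered by the sample titles. No label lists the animals, and p-values therefore reflect only how these samples vary, which may be technical. Per the labels, RNA was extracted with Trizol and 200 ng was labelled with biotin. The authors deposited log2 values of 41345 transcript clusters. The submitters' processing notes name RMA and oligo, and the design text names Expression Console. The sources used here give no version, setting or genome build. As usually run, RMA shares a distribution between arrays and compresses dim values. The log2 scale was inferred from the range of the deposited values, 0.409 to 13.27. No batch information was given. The number of arrays limits the precision.

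Names came from the platform annotation (23521 clusters with 1 symbol, 1814 with several, 16010 unlisted). All 11 member clusters matched RefSeq by Entrez gene with the same symbol. Per gene, the cluster with the highest mean was used.

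KO minus WT was fitted with limma 3.58.1 (R 4.3.3), with lmFit and eBayes without covariates, two-sided, Benjamini-Hochberg over all 23521 clusters, threshold 0.05; intervals are 95%. Single values and within-array differences of 4 pairs were also tested by exact two-sided permutation (Python 3.11.15, scipy 1.17.1) over 56 splits, where the smallest possible p is 0.0179, or 0.1 for 3 against 3. The fit was tested on simulated data.

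Genes named by rule were all members, Igfbp1, the 2 with the smallest p in each list, and for members with an SD of at least 0.5 the 3 nearest genes. Other genes of the lists were named after their values were seen. Members, pairs and lists were chosen with earlier results of these data known. Alternatives were leaving out arrays, the replicate number as a block, other normalization, a level filter, all clusters, trend and robust settings, and array weights.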

Additional observations from a re-analysis of the deposited data

Results flagged for a closer look

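Slc25a10 in KO array 5 read 7.607, away from the other KO arrays, which lay between 7.040 and 7.149. Its gap was 0.808 of the KO range, above the critical 0.71. It was the 1 flag among 27 genes screened in the KO group, and chance flags about 1 in 20 groups. The WT group of 3 was not screened.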

How the results depend on the processing

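No member passed the adjusted threshold under any of the alternatives run, and the lowest adjusted p of a member there was 0.593 (Foxo1, limma). Pck2, which the level filter removed, G6pc, Pcx, Foxo1 and Sik1 kept their sign in all alternatives that gave them a value. Without KO arrays 1 and 2 together, Pck1 was at -0.22, Fbp1 at -0.13, Ppargc1a at -0.21 and Crtc2 at -0.059, each with the other sign than over all arrays. Leaving out single arrays gave differences from -0.055 to 0.23 for Pck1, -0.072 to 0.10 for Fbp1, -0.11 to 0.12 for Ppargc1a, -0.045 to 0.12 for Crtc2 and -0.014 to 0.17 for Slc37a4. The cause was not tested. The number of clusters past the threshold was 0 over single-symbol clusters (1429 at an unadjusted p under 0.05), 3 over all clusters, 1 among clusters with a mean of at least 5 and 3 with trend and robust settings.

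No pairing by replicate number was seen: deviations of same-numbered arrays correlated at -0.0477, 0.0157 and 0.0212, and 1 of 3 WT arrays correlated best with its own number. With only 3 pairs, a weak pairing could be missed. With the replicate number as a block, which rests on 3 pairs and 2 residual degrees of freedom, 1 cluster passed (limma). The members' median was then 0.279, with Pck1 at 0.324, Ppargc1a at 0.290, Fbp1 at 0.165, Crtc2 at 0.142, G6pc at 1.009 and Pcx at -0.047, and 0 members passed.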
